A study of Mus musculus with 80 samples.

Results

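The genes described here are the molecular chaperones and the proteasome subunits of single cells from the mouse striatum. They were chosen by name: a gene entered if its symbol began as those of heat shock proteins (Hsp), J proteins (Dnaj), the chaperonin ring (Cct2 to Cct8, and Tcp1) or proteasome subunits (Psm), and 6 rows whose names carry the pseudogene suffix -ps were left out. Of the 25160 listed genes, 124 met this rule. By function they were 73 chaperones and partners of chaperones, 48 proteasome genes, and 3 genes that share only the name: Psmc3ip (a meiotic recombination factor), Hspbap1 (a protein that binds a small heat shock protein) and Hspb11 (a part of the intraflagellar transport complex). The rule itself used no measured value, but it was chosen with earlier results of these data known.

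Cells were taken from the dorsomedial striatum of adult mice heterozygous for 2 bacterial artificial chromosome reporters, Drd1a-TdTomato and Drd2-EGFP, and every cell of either group carried both transgenes. Single cells were sorted into 3 plates by fluorescence-activated cell sorting (FACS) for the red or the green reporter, and cDNA was made from each cell: 40 cells were labelled Drd1 and 40 Drd2. The values are TPM, transcript abundances scaled to transcript length and to the total of each cell. They keep no count of reads, and the depth behind a value is unknown. The paper describes a bias of the reads towards the end of transcripts and, for Chrm4, a dependence on the gene annotation. Levels of different genes can therefore be set side by side only roughly. The labels name no animal, so each group counts as 1 sample. Values were therefore described without a test, beside those found within the 2 large plates.

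The Drd2-EGFP reporter also marks cholinergic interneurons, and 2 Drd2 cells with Chat, the acetylcholine-making enzyme, above 100 TPM were described apart. This left 40 medium spiny neurons (MSN) labelled Drd1 (D1 MSN) and 38 labelled Drd2 (D2 MSN). Plate FACS051_5 held 18 and 16 of them, plate FACS086_4 held 21 and 19, and plate FACS086_9 held 1 and 3. Summed levels of Drd1, Tac1 and Pdyn, markers of D1 MSN, had medians of 1174 TPM (D1 MSN) and 1.65 TPM (D2 MSN), and those of Drd2, Adora2a, Penk and Gpr6 had medians of 11.6 and 10848 TPM. The cell labelled Drd1 in well D04 of FACS051_5 went against its label: it held Drd1 at 2.03 TPM and the astrocyte markers at 2654 TPM in sum, while the highest sum in any other MSN was 45.5 TPM. The cell labelled Drd1 in well B02 of FACS086_4 had only 648 genes above 1 TPM, and Drd1 was listed at 0 in it. In both these cells the D2 markers also exceeded the D1 markers, as they did in the cell labelled Drd1 in well C06 of FACS051_5 (3682 against 658 TPM). In the cell labelled Drd2 in well A12 of FACS086_9, D1 markers exceeded D2 markers (1218 against 527 TPM), and a Drd2 cell in well C05 of FACS086_4 held both (1083 and 7234 TPM). All were kept, and results that rest on the 4 cells against their label, or on D04, are also given without them. The paper reports that not every sequenced cell gave usable data but does not name those cells, and every listed cell was used here.

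Chaperones bind proteins that are not yet, or no longer, folded. HSP70 proteins grip short exposed stretches in cycles of ATP use, J proteins bring them their clients and start the cycle, and nucleotide exchange factors such as the HSP110 proteins end it. HSP90 acts later, on receptors and kinases near their final shape, and the chaperonins enclose a single chain in a chamber. The proteasome degrades proteins marked with ubiquitin: the 19S cap recognizes and unfolds them, and the 20S barrel cuts them. Neurons do not divide and cannot dilute damaged protein, and in the striatum the aggregation of huntingtin is a well-known strain on both systems. The transcription factor HSF1 raises many chaperone genes after heat or other protein damage through repeats of GAA or TTC letters, the ER stress element serves the same end in the endoplasmic reticulum (ER), and NRF1, encoded by Nfe2l1, raises proteasome genes through antioxidant response elements.

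The promoters of some members carry these motifs, and some are shown to set the letters of genes known to answer to stress beside their levels here, from Hspa1a, found in 6 of 78 MSN, to Dnaja1, found in 74. Sequences were taken from RefSeq (GRCm38.p6), which held promoters of 103 of the 124 members, and the 250 bases before each start were searched on both strands. A pair of heat shock units lay in the windows of 19 of these 103 members as GAANNTTC or TTCNNGAA, a share of 18.4% against 14.5% of all 27025 genes with a window. Of the 13068 listed genes with a window, 12.8% held a pair. The motif of 3 units, GAANNTTCNNGAA or its reverse complement, was found in 3 of the 103 members and 0.514% of all genes; any such match also holds both forms of the pair. No pair lay in the windows of Dnajb1 or Hspb8, which are not printed. Other listed starts of Dnaja1 and Hspd1 also had windows without a pair. In the next 5 lines capitals mark a pair of units, and adjoining pairs run together. The windows of Hspa1a and Hspa1b, neighbouring genes on the minus strand, have the same letters here (chr17:34972233-34972280 and chr17:34959315-34959362). Hspe1 (chr1:55088039-55088096, plus strand) shares its window with Hspd1, which starts in the other direction, and Dnaja1 lies on the plus strand (chr4:40722324-40722371), as does Hspb1 (chr5:135887782-135887849). The Hsph1 window is on the minus strand (chr5:149636342-149636389).
Hspa1a and Hspa1b: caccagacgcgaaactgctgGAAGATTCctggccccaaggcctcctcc
Hspe1: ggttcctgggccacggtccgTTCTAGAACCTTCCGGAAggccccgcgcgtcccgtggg
Dnaja1: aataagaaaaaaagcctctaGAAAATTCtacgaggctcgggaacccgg
Hspb1: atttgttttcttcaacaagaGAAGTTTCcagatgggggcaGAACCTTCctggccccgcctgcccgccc
Hsph1: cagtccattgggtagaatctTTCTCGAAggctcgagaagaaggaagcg

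The ER stress element, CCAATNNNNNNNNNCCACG, was found in 3 members, all of which encode chaperones of the ER, and in 0.130% of all genes. Capitals mark it in Hspa5 (chr2:34772005-34772063, plus strand) and Dnajc3 (chr14:118937807-118937865, plus strand). Hsp90b1 held the element in each orientation. The antioxidant response element TGACNNNGC lay in 17 of the 103 members, a share of 16.5%. It lay in 11.5% of all genes with a window, and in 13.6% of the listed genes among them. Members with it included Psmb5 (chr14:54618014-54618062, minus strand) and Psmb6 (chr11:70525328-70525356, plus strand), which encode catalytic subunits. A match is a description of the letters and does not show that a factor binds there.
Hspa5: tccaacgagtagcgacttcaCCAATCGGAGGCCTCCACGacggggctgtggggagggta
Dnajc3: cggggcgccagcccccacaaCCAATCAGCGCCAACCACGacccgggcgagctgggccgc
Psmb5: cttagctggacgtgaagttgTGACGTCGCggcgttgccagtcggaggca
Psmb6: cagaggcggactaaagagagTGACGGAGC

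The members were among the more abundant transcripts of MSN. Their mean over the 78 MSN had a median of 50.5 TPM, against 2.54 TPM over all listed genes, and 96 of the 124 averaged at least 10 TPM. Of the members, 64 were above 1 TPM in at least 50% of MSN, a share of 51.6%, while 13.7% of all listed genes were. A single cell nevertheless lacked many of them: the median member was above 1 TPM in 53.2% of MSN. At a mean of 10 TPM or more, the SD of log2(TPM + 1) across MSN had a median of 2.98 for members and 2.58 for all genes. These 2 sets were not matched for level: their means had medians of 79.0 and 29.5 TPM. The SD was smallest for Hsp90aa1 (1.28), Hsp90ab1 (1.45) and Hspa8 (1.60), which were found in nearly every cell. Hspa1a (1.77) and Dnajc18 came next, both with low means. The largest SDs belonged to Psma1 (3.63), Psma5 (3.61), Psmd14 (3.57), Psmc4 (3.56) and Dnajc19 (3.53), whose cells ranged from 0 to at least 819 TPM.

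**Figure D1:**
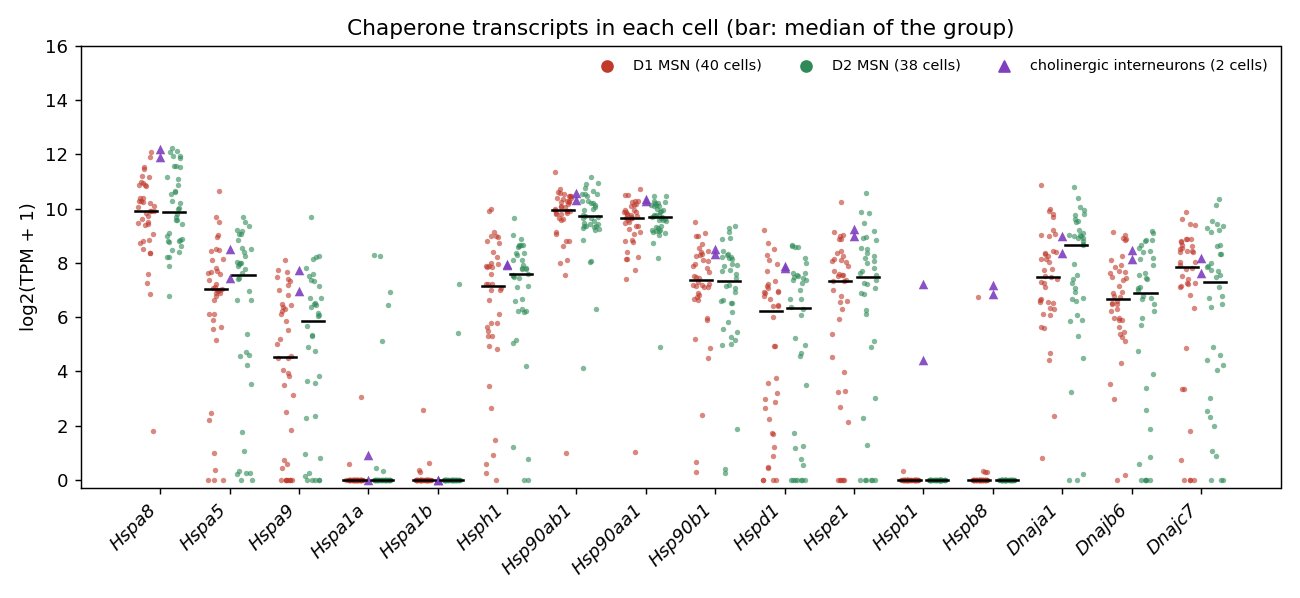
Level of 16 chaperone genes in each cell, as log2(TPM + 1), for 40 D1 MSN (red), 38 D2 MSN (green) and 2 cholinergic interneurons (purple triangles), with black bars at the group medians. Hspa8, Hsp90ab1 and Hsp90aa1 lie high in nearly every cell, Hspa1a and Hspa1b are above 0 in few cells, and Hspb1 lies above 1 TPM only in the interneurons.

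HSP70 was represented mainly by the constitutive cytosolic form. Hspa8, which encodes HSC70 (chr9:40800984-40810087, GENCODE M21, GRCm38), was the highest member and stood 39th among all listed genes, with a mean of 1392 TPM. It was above 1 TPM in 78 of 78 MSN. It ranged from 2.49 to 4325 TPM in D1 MSN (median 962) and from 109 to 4784 TPM in D2 MSN (median 953), so the groups overlapped nearly throughout. Its lowest value came from the poor cell in well B02. Within plates the medians were apart: on FACS051_5 they were 1288 TPM in D1 and 2620 TPM in D2 MSN, and on FACS086_4 they were 852 and 550 TPM. The log2 fold of the means, D1 over D2, was −0.33 over all MSN, −0.64 on FACS051_5 and −0.14 on FACS086_4.

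The HSP70 of the ER, Hspa5 (BiP), averaged 224 TPM and was above 1 TPM in 67 of 78 MSN. The mitochondrial form, Hspa9, averaged 58.7 TPM in D1 and 99.2 TPM in D2 MSN and was found in 29 cells of each group. Its log2 fold was −0.75, and it was below 0 on both large plates (−1.09 and −0.86). Hspa14, a ribosome-bound HSP70, averaged 50.7 TPM, and Hspa13 17.4 TPM. Hspa2, best known from the testis, was below the 10 TPM mean, and its highest value, 175 TPM, came from the D04 cell: its log2 fold was 0.19 with and −0.60 without that cell. Of the HSP110 exchange factors, Hsph1 averaged 215 TPM with a log2 fold of −0.02, and Hspa4l and Hspa4 averaged 67.4 and 45.3 TPM. Hspbp1, another exchange factor of HSP70, was above 1 TPM in 25 D1 and 13 D2 MSN, with a mean of 44.4 TPM. Its log2 fold of 0.86 was 0.97 and 0.63 on the large plates.

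The stress-inducible HSP70 genes were at or near 0 in most cells. Hspa1a (chr17:34969190-34972156) was above 1 TPM in 1 of 40 D1 and 5 of 38 D2 MSN. The 95% Clopper-Pearson intervals of these shares, which cover counting error only, were 0.0633 to 13.2% and 4.41 to 28.1% and overlapped. All 6 cells were on plate FACS051_5, and no MSN of FACS086_4 held Hspa1a above 0. The 5 D2 cells held 309 TPM (well A03), 302 TPM (B10), 121 TPM (B06), 85.5 TPM (C03) and 33.4 TPM (D02), while the D1 cell in well C07 held 7.34 TPM. The means of 0.196 TPM in D1 and 22.4 TPM in D2 MSN gave a log2 fold of −4.29, which thus rested on 5 cells of 1 plate and fell to −0.85 when the means of the logs were compared. Hspa1b (chr17:34956436-34959238) was above 1 TPM in 3 MSN of that plate: 149 TPM in the D2 cell in well A03, 41.3 TPM in C08 and 4.94 TPM in the D1 cell in well A02. Among MSN, only the cell in A03 held both genes above 1 TPM. The longest open reading frames of the pair, 1926 and 1929 bases, were 98.1% identical when laid side by side without gaps, so the split of reads between them is uncertain. The third gene of the cluster, Hspa1l, was listed at 0 in all 78 MSN.

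In the cells with Hspa1a, other heat-inducible chaperones were at varied levels. Dnajb1, an HSP40 that HSF1 also controls, was at 222 TPM in A03 and 105 TPM in B10, at 44.0 TPM in D02, at 1.45 TPM in B06, and listed at 0 in C03 and C07. Hsph1 was at 563 TPM in the D1 cell C07 (D1 median on that plate 141 TPM), at 471 TPM in A03 and 393 TPM in C03, above the D2 median of 231 TPM, and at 219 TPM or less in D02, B10 and B06. Hspa8 was above the D2 median of 2620 TPM in 4 of the 5 D2 cells, at 4376 TPM (D02), 3920 TPM (B10), 3019 TPM (C03) and 2960 TPM (B06), and at 1194 TPM in A03. A03 was also the only one of the 6 with Fos (380 TPM), Jun (180 TPM) and Npas4 (151 TPM), early response genes of active neurons, all above 100 TPM. Across 78 MSN the genes most like Hspa1a by Pearson's r of log2(TPM + 1) were Trim11 (0.57), Gm43564, Scarna17 and Snord58b (0.50 each) and Ccdc181 (0.48). Gm43564, Scarna17 and Snord58b were each above 1 TPM in 1 cell, and Hspa1a was above 1 TPM in 6, so these values rest on a handful of cells from 1 plate.

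HSP90 was high and even. Hsp90ab1, the constitutive cytosolic form, averaged 1009 TPM in D1 and 975 TPM in D2 MSN and was above 1 TPM in 77 of 78. Hsp90aa1, the inducible cytosolic form, averaged 785 and 833 TPM and was above 1 TPM in all 78. The ER form, Hsp90b1 (GRP94), averaged 211 and 203 TPM and was found in 74. Their log2 folds, 0.05, −0.09 and 0.05, reached at most −0.31 on FACS051_5 and −0.34 on FACS086_4.

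The small heat shock proteins with Hspb names, of a family that holds unfolding proteins in large oligomers without ATP, were close to absent in MSN. Any of that family without such a name fell outside the rule and was not looked at. None of the 4 listed, Hspb1, Hspb6, Hspb7 and Hspb8, averaged 10 TPM. Hspb1 did not exceed 0.269 TPM in any MSN. Hspb8 (106 TPM) and Hspb6 (66.1 TPM) were each above 1 TPM in a single MSN, the D04 cell with the astrocyte markers. Without it, no MSN was above 1 TPM for either gene. Hspb7 was above 1 TPM in 3 D2 MSN and reached 2.62 TPM.

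The J proteins ran from 0.0197 TPM (Dnajc5b) to 368 TPM (Dnaja1) in their means. All 4 of the Dnaja class, the closest relatives of bacterial DnaJ, averaged at least 10 TPM. Dnaja1 averaged 312 TPM in D1 and 426 TPM in D2 MSN; its medians were 179 and 408 TPM, and its log2 fold of −0.45 was −0.52 and −0.48 on the large plates. Its highest value, 1857 TPM, came from the cell labelled Drd1 in well C06, whose D2 markers exceeded its D1 markers. Dnaja2 (115 and 160 TPM) had a log2 fold of −0.47, again below 0 on both plates (−0.59 and −0.32). Dnaja4 was above 1 TPM in 5 D1 and 12 D2 MSN, and the groups were both listed at 0 at the median. It reached 327 TPM in D1 and 168 TPM in D2 MSN, and its means of 12.3 and 29.6 TPM gave a log2 fold of −1.20. Without FACS051_5 this fold was −0.29. Dnaja3, the mitochondrial member, averaged 17.1 TPM, and its folds on the large plates had opposite signs (−0.11 and 1.96).

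Of 11 Dnajb genes, 7 averaged at least 10 TPM. The highest were Dnajb6 (164 TPM, above 1 TPM in 69 MSN), a known suppressor of polyglutamine aggregation, then Dnajb4 (86.1 TPM), the ER member Dnajb11 (64.0 TPM) and Dnajb5 (19.4 TPM). Their log2 folds lay between −0.55 and 0.32. Dnajb2, a neuronal member, averaged 18.8 TPM in D1 and 6.76 TPM in D2 MSN, with a log2 fold of 1.35 (1.98 on FACS051_5 and −0.21 on FACS086_4). The only D1 MSN of FACS086_9 held its highest value, 279 TPM, and without that plate the fold was 0.80. Of 26 Dnajc genes, 18 averaged at least 10 TPM. Dnajc7, a link between HSP70 and HSP90, averaged 266 TPM and was above 1 TPM in 69 MSN, Dnajc8, which is found with splicing factors, 196 TPM, the mitochondrial import factor Dnajc19 161 TPM, and Dnajc15, its close relative, 67.2 TPM. Dnajc5, the cysteine string protein of synaptic vesicles, averaged 37.6 TPM and was found in 51 of 78 cells. Dnajc6 (auxilin), which uncoats clathrin vesicles with HSC70, averaged 13.2 and 12.6 TPM and was found in 25. Dnajc17 averaged 21.3 TPM in D1 and 7.06 TPM in D2 MSN, and its log2 fold of 1.46 was 1.53 and 1.24 on the large plates. It was above 1 TPM in 11 D1 and 6 D2 MSN only.

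The cytosolic chaperonin CCT, a double ring of 8 different subunits that folds actin and tubulin, was present throughout. The 8 subunits averaged between 58.5 TPM (Cct4) and 190 TPM (Cct6a), a spread of 3.25 times in listed TPM. The rings hold each subunit in equal number, but TPM of different genes compare only roughly. Cct3 averaged 244 TPM in D1 and 128 TPM in D2 MSN, and its log2 fold of 0.92 was 0.54 and 1.54 on the large plates. Cct8 lay the other way, with 98.6 and 174 TPM (−0.81), but the 2 plates gave −1.76 and −0.06. Across the 8, 4 folds were above 0 and 4 below. All 8 subunits were above 1 TPM together in 9 of 40 D1 and 7 of 38 D2 MSN. The mitochondrial chaperonin genes Hspe1 (HSP10) and Hspd1 (HSP60), which share the promoter shown above, averaged 235 and 109 TPM. Their log2 folds were −0.39 and −0.15, and that of Hspd1 changed sign between the plates (−0.61 and 0.02).

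The 20S barrel had the highest proteasome transcripts. All 31 standard subunits of the 26S particle averaged at least 10 TPM, and 30 of them were above 1 TPM in at least 50% of MSN. The 14 subunits of the 20S core had a median of 189 TPM and the 17 of the 19S cap a median of 85.1 TPM. In the alpha ring, which gates the barrel, the range was from 131 TPM (Psma5) to 256 TPM (Psma7). In the beta ring, which holds the active sites, Psmb6 was the highest proteasome gene at 376 TPM and was found in 74 of 78 MSN, while Psmb7 was the lowest of the ring at 74.1 TPM. Psmb5, the third catalytic subunit, averaged 198 TPM. The 3 catalytic transcripts thus differed by up to 5.08 times in listed TPM, which compares different genes only roughly. Their log2 folds, D1 over D2, were 0.36 (Psmb6), −0.47 (Psmb5) and −0.43 (Psmb7), and those of Psmb6 and Psmb5 changed sign between the large plates.

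**Figure D2:**
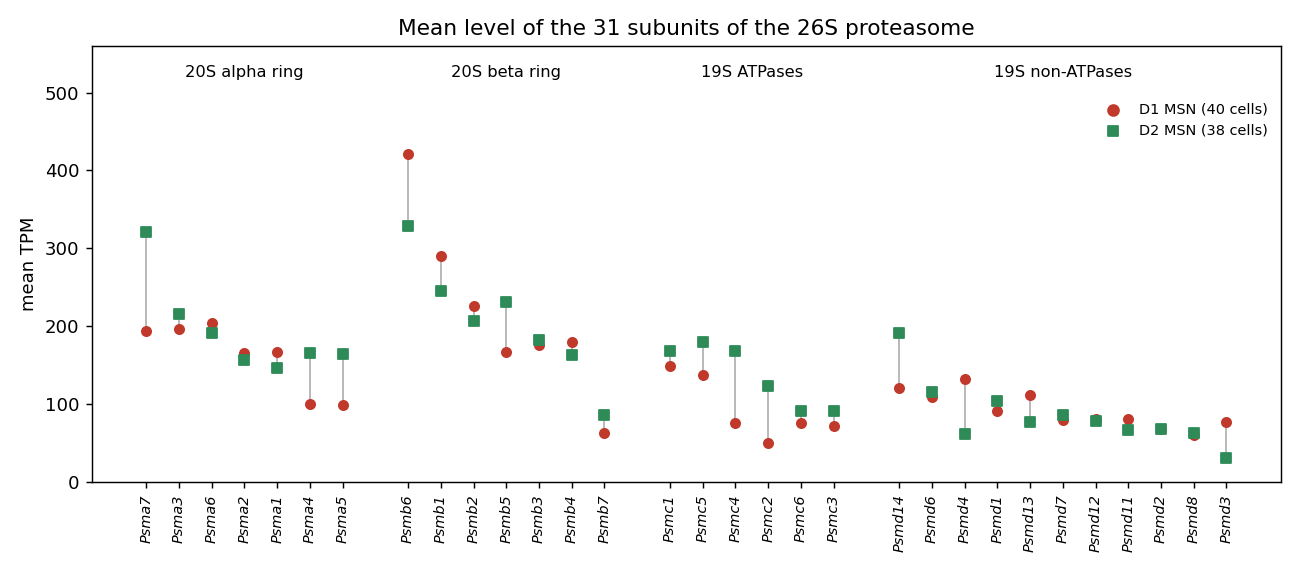
Mean TPM of the 31 subunits of the 26S proteasome in 40 D1 MSN (red circles) and 38 D2 MSN (green squares), ordered within the 4 parts of the particle by the mean of all MSN. Psmb6 stands highest (422 and 328 TPM), and the means of all 6 ATPases of the cap lie higher in D2 MSN.

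In the 19S cap, the 6 ATPases that unfold the client ranged from 81.5 TPM (Psmc3) to 158 TPM (Psmc1). All 6 had a log2 fold of the means below 0, with a median of −0.37, and 4 of the 6 were below 0 on both large plates. Over the 7642 genes averaging 10 TPM or more the median was 0.01 and 3770 were below 0, as were 57 of the 96 members. The cell medians were split. Those of Psmc1 (95.0 TPM in D1 and 84.9 TPM in D2 MSN), Psmc3 (40.3 and 38.0 TPM) and Psmc2 were higher in D1 MSN. Those of Psmc4, Psmc5 and Psmc6 were higher in D2 MSN. Psmc4 averaged 75.8 TPM in D1 and 168 TPM in D2 MSN (log2 fold −1.14, and −1.29 and −1.25 on the plates). It was above 1 TPM in 26 and 25 cells, so the groups differed in the levels of the cells that held it (up to 408 and 1148 TPM) rather than in their number. Psmc2 averaged 49.3 and 123 TPM (−1.30, with −1.29 and −0.30 on the plates). Its highest value, 1117 TPM, came from the cell labelled Drd2 in well A12 of FACS086_9, which had only 1215 genes above 1 TPM. Without that plate the fold of Psmc2 was −0.85. Its medians lay the other way, at 22.8 TPM in D1 and 8.95 TPM in D2 MSN. The 11 non-ATPase subunits split into 6 folds above 0 and 5 below, and ranged from 54.0 TPM (Psmd3) to 155 TPM (Psmd14, the deubiquitinase of the cap).

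Among these non-ATPases, 2 subunits had a log2 fold above 1 that kept its sign on both large plates. Psmd3, a scaffold of the lid, was found above 1 TPM in 26 of 40 D1 cells, or 65.0% (interval 48.3 to 79.4%), but in 16 of 38 D2 cells, or 42.1% (26.3 to 59.2%), and these intervals overlap. Its values ran from 0 to 302 TPM in D1 MSN (median 52.2) and from 0 to 275 TPM in D2 MSN (median 0), and its log2 fold was 1.30 (1.06 and 1.499 on the plates). Psmd4, a ubiquitin receptor, averaged 132 and 61.5 TPM with medians of 42.5 and 9.82 TPM, and its log2 fold was 1.09 (0.97 and 1.04); it was 0.99 without the 4 cells whose markers went against the label. The ranges of both genes overlapped widely between the groups.

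The listed immune and germline forms of the 20S subunits were all but missing. Psmb9, another immune counterpart of the catalytic subunits, was not among the listed genes, so its level is unknown. Psmb8, a catalytic subunit of the immunoproteasome, did not exceed 0.707 TPM in any MSN. Psmb10, another, was above 1 TPM in 2 D1 MSN and was listed at 0 in all D2 MSN, and its highest value, 240 TPM, came from the D04 cell. Psma8, the testis form, was above 1 TPM in that cell alone (97.4 TPM). Psmb11, the thymus form, did not exceed 5.30 TPM. The activators that cap the barrel in place of 19S were at moderate levels: Psme1 averaged 50.2 TPM, Psme2 46.2 TPM, Psme3 38.5 TPM and Psme4 35.2 TPM, and the inhibitor Psmf1 averaged 27.4 TPM. None passed 1 in size on the log2 scale. Psme1 and Psme2, whose products form a joint ring, had folds of opposite sign within each large plate (−4.78 and 3.15 on FACS051_5, 0.43 and −0.85 on FACS086_4), and each was above 1 TPM in only 24 of 78 MSN.

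The 7 assembly chaperones of the proteasome help to build the rings and leave the finished particle. Of these, 4 were beyond 1 on the log2 scale, 2 in each direction, and the other 3 within 0.38 in size. Over all genes averaging 10 TPM or more, 12.4% were above 1 and 9.58% below −1. The 7 were found in a minority of cells, at a median of 33.3% of MSN. Only 3 of them had folds of the same sign on both large plates. Psmg4, the highest in level, averaged 53.2 TPM. Psmd10 (gankyrin, chrX:140948429-140956728) was found above 1 TPM in 5 D1 MSN, at 89.1, 5.88, 4.93, 2.31 and 1.22 TPM. The highest of these was the D04 cell. In D2 MSN it was above 1 TPM in 11 cells, of which 9 were on FACS051_5, and ran from 42.8 to 433 TPM in them. All 11 were thus above the 4 other D1 cells that held it, while the median of either group was 0. The means were 2.59 and 46.9 TPM, and the log2 fold was −3.74 (−3.56 and −4.54 on the plates, and −5.12 without D04). Psmg3 was found above 1 TPM in 9 of 40 D1 cells, or 22.5% (interval 10.8 to 38.5%), but in 1 of 38 D2 cells, or 2.63% (0.0666 to 13.8%; the intervals overlap), with means of 24.0 and 5.17 TPM. Its log2 fold was 2.02, and on FACS086_4 it was listed at 0 in all D2 MSN. Psmg2 averaged 46.5 and 22.7 TPM (1.004, with 0.86 and 0.94, and 0.90 without FACS086_9). Psmd9 averaged 13.7 and 30.4 TPM (−1.09), but the plates gave −2.26 and 0.28.

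Set against all genes averaging 10 TPM or more, the comparison of D1 with D2 MSN gave the members no larger share of differences. The 2 sets were not matched for level, so the shares compare only roughly. Their means had medians of 79.0 TPM for members and 29.5 TPM for all genes. Of the 96 members with a mean of at least 10 TPM, 6 had a log2 fold above 1 (Dnajb2, Dnajc17, Psmd3, Psmd4, Psmg2 and Psmg3), a share of 6.25%, while 12.4% of the 7642 genes at that level did. In the other direction 6 members were below −1 (Dnaja4, Hspa1a, Psmc2, Psmc4, Psmd10 and Psmd9), again 6.25%, and 9.58% of all genes were. With the same sign asked on both large plates, 5 members remained higher in D1 MSN, against 9.04% of all genes, and 4 in D2 MSN (Dnaja4, Psmc2, Psmc4 and Psmd10), against 6.84%. Psmg3 is among the 5, though all D2 MSN of FACS086_4 were listed at 0 and no fold is given for it there. It was counted by its higher D1 mean, by the rule used for all genes. Dnajb2 did not hold on both plates, nor did Psmd9, and Hspa1a was at 0 in all MSN of FACS086_4. The median log2 fold was −0.09 over the members and 0.01 over all genes; 39 members lay above 0 and 57 below. Without the D04 cell the counts of members beyond 1 were again 6 and 6. Without the 4 cells against their label they were 5 and 6, against 12.2 and 10.2% of all genes: Psmd4 (0.99) and Psmc2 (−0.84) were no longer beyond 1, and Dnajb12 was. Without FACS086_9, Dnajb2, Psmg2 and Psmc2 were no longer beyond 1.

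**Figure D3:**
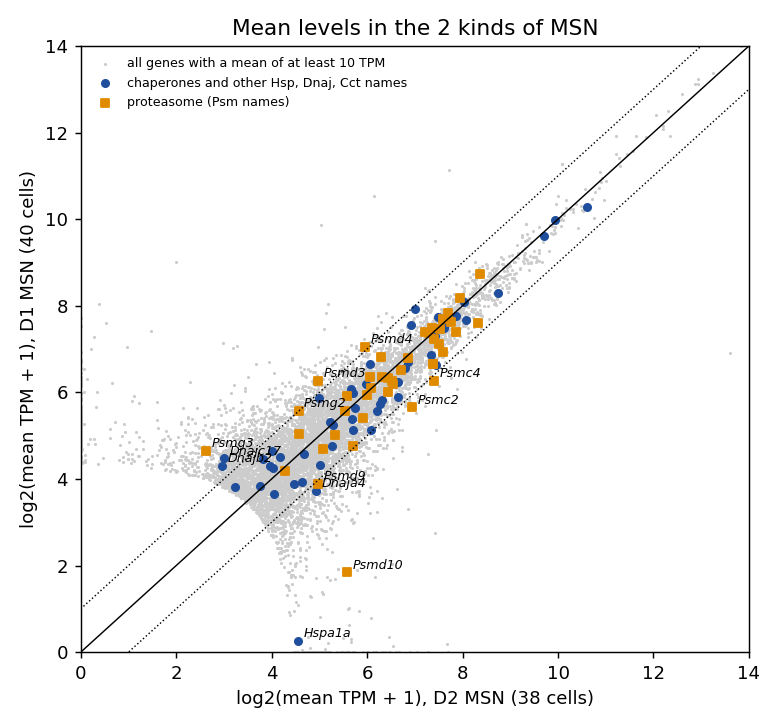
Mean level in D1 MSN (vertical) against D2 MSN (horizontal), each as log2(mean TPM + 1), for the 7642 genes averaging 10 TPM or more (grey) and for the 96 members among them (blue, chaperones; orange, proteasome). Dotted lines lie 1 from the diagonal on the log2 scale, and the 12 members beyond them are named, with Hspa1a and Psmd10 farthest out.

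Summed over genes, the chaperones came to a mean of 7389 TPM in D1 and 8000 TPM in D2 MSN (log2 fold −0.11, with −0.28 and −0.08 on the plates), and the proteasome genes to 4592 and 4987 TPM (−0.12, with −0.24 and −0.12). As a share of the listed TPM of a cell, chaperones had a median of 0.858% in D1 and 0.870% in D2 MSN. Proteasome genes had medians of 0.571 and 0.585%. The plates differed more than the groups: chaperones had medians of 1.03% (D1) and 1.21% (D2) on FACS051_5 and of 0.837 and 0.794% on FACS086_4. The cell in well B02 of FACS086_4 was the lowest for both sums, at 0.00224 and 0.00206%.

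**Figure D4:**
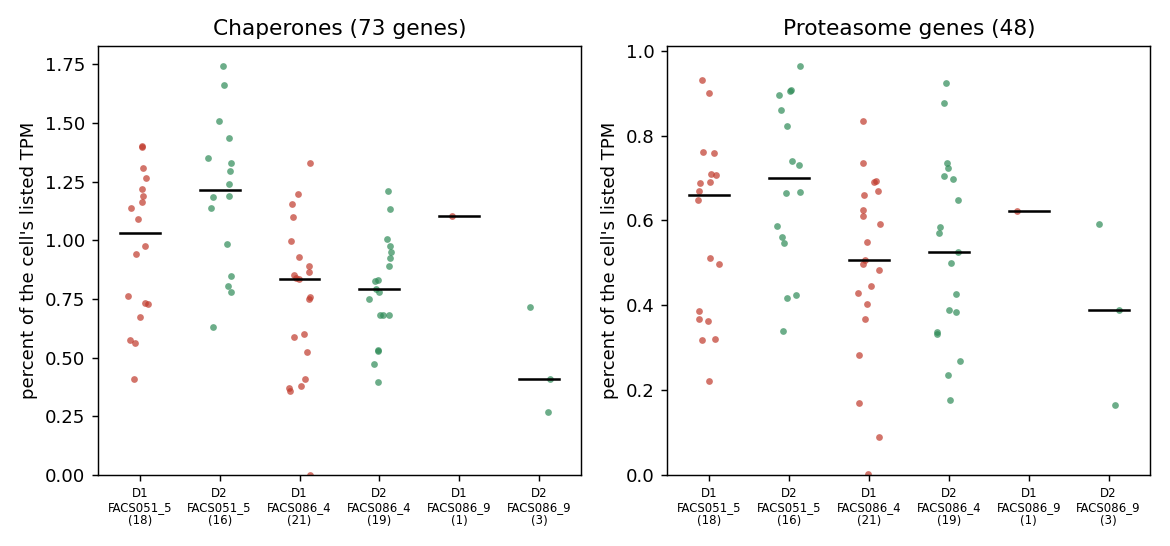
Share of the listed TPM of each cell taken by 73 chaperone genes (left) and 48 proteasome genes (right), in percent, by plate and group, with the number of cells in brackets and black bars at the medians. Cells of FACS051_5 lie higher than those of FACS086_4 in both groups, with chaperone medians of 1.03 and 1.21% against 0.837 and 0.794%.

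How much of the proteasome a cell showed went with how many genes were found in it. Of the 31 standard subunits, a D1 MSN held a median of 25 above 1 TPM (range 2 to 31) and a D2 MSN a median of 23 (range 8 to 30). A single MSN, the D1 cell in well C07 of FACS051_5, held all 31. The median number of genes above 1 TPM was 5722 in D1 and 4928 in D2 MSN. Across the 78 MSN, the number of subunits and the number of genes had a Pearson's r of 0.80, and of 0.72 and 0.85 within FACS051_5 (34 cells) and FACS086_4 (40 cells). These cells share plates, and both numbers come from the same library, so r is given as a description. Pairs of subunits correlated weakly: the median r of log2(TPM + 1) over all pairs of the 31 was 0.17 over 78 MSN, that over pairs of CCT subunits 0.21, and that over pairs of all genes averaging 10 TPM or more 0.08. Within plates the CCT value was 0.06 on FACS051_5 and 0.19 on FACS086_4.

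**Figure D5:**
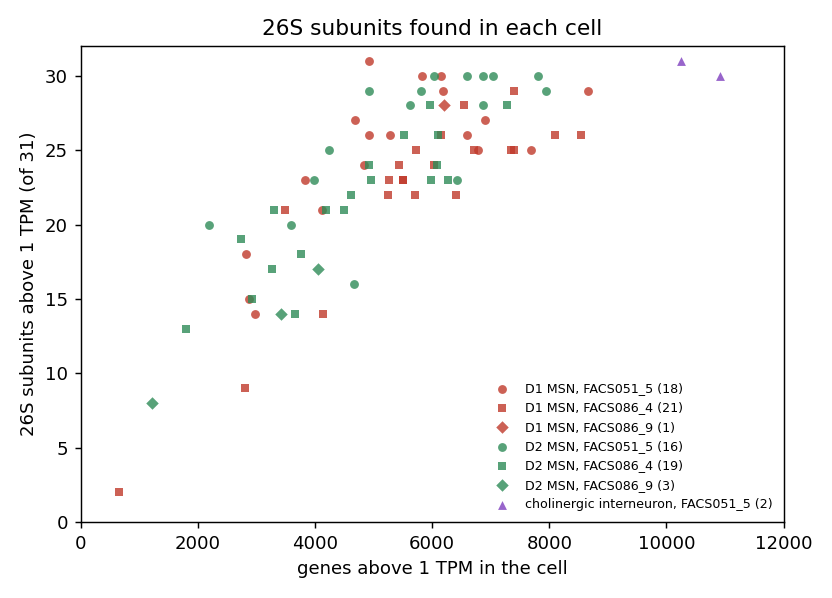
Number of the 31 standard 26S subunits above 1 TPM (vertical) against the number of genes above 1 TPM (horizontal) in each cell, by group (colour) and plate (symbol). Cells with few genes show few subunits, down to 2 subunits in the cell with 648 genes, and the cholinergic interneurons lie at 30 and 31 subunits.

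The 2 cholinergic interneurons, large neurons that tile the striatum thinly, were both richer in genes (10912 and 10251 above 1 TPM) than any MSN. Chaperones took 1.66% (well A08) and 1.42% (well B02) of their TPM and proteasome genes 0.809 and 0.803%. Hspa8 was at 4687 and 3860 TPM in them, within the range of D2 MSN. Of 73 chaperones, 53 were above the D2 MSN median in both cells, as were 38 of 48 proteasome genes. Of all listed genes 34.2% were, and of those averaging 10 TPM or more 67.4%, against 42 of 52 chaperones and 37 of 43 proteasome genes at that level. Both cells were above every MSN for a pair of small heat shock proteins: Hspb1 at 20.2 and 148 TPM and Hspb8 at 143 and 114 TPM. Psmb10 was at 192 and 97.2 TPM in them. Hspa1l reached 23.9 TPM in A08. With 2 cells, both from FACS051_5, no more than these values can be given.

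Other genes of the same pathways were tallied by the same limits. Of all genes averaging 10 TPM or more, 12.4% were above 1 and 9.58% below −1. Of 3 heat shock factors listed, Hsf1 alone averaged 10 TPM or more, with 10.6 TPM in D1 and 27.3 TPM in D2 MSN (log2 fold −1.29, with −1.13 and −2.10 on the plates). It was above 1 TPM in only 13 D1 and 11 D2 MSN, and the median of either group was 0. Of 13 co-chaperones at that level, Hspbp1 included, Bag6, which guards stray membrane proteins, was above 1 (1.69, with 2.62 and −0.10) and Bag4 below −1 (−1.01, with −0.41 and −2.23). Stip1 (HOP), which hands clients from HSP70 to HSP90, averaged 125 and 70.5 TPM. Of 6 prefoldin subunits, which feed CCT, Pfdn4 was above 1 (1.08, with −0.01 and 1.51), while Pfdn5 was the highest at 424 TPM in each group. None of 11 genes of ER folding and the unfolded protein response was beyond 1 in size. Of 16 ubiquitin genes and proteasome partners, Nfe2l1 was above 1 (1.46, with 0.38 and 2.48), with means of 83.8 TPM in D1 and 29.8 TPM in D2 MSN. The ubiquitin gene Ubb was above 1 TPM in all 78 MSN at a mean of 4499 TPM, over any member.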

How the data were processed

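Single cells of the dorsomedial striatum were sorted, and cDNA was made with the SMARTer v3 kit. The submitters' processing notes name bcl2fastq 2.18, FastQC 0.11.5, STAR 2.5.0, featureCounts 1.5.1 and DESeq2 1.14.1 with mm10/GRCm38, in no stated order. The authors deposited TPM per gene and cell; the tool that made the TPM is not given in the sources used here. Listed TPM summed to between 506588 and 958040 per cell, so each cell's values also included features not listed, and depth cannot be read from TPM.

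Members were matched by name. The members and lists were chosen with earlier results of these data known. Drd2 cells with Chat above 100 TPM were set apart. A log2 fold is log2 of the mean TPM + 1 of D1 MSN over that of D2 MSN, and understates changes of low genes; folds were counted for genes averaging at least 10 TPM. A gene was counted in a cell above 1 TPM. Where a group was listed at 0 in every cell, no fold was given. The counts of all members and all genes with the same sign on both large plates still used the direction of the means. Shares of cells have exact Clopper-Pearson 95% intervals. The cells came from 3 animals in 3 experiments by the paper's methods, and no source used here ties a cell to an animal, so each group is 1 sample, no test was made, and within-plate folds stand beside the pooled ones. Steps were checked on cells reassigned to groups with 200 genes raised.

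Genes named were, by rule, members of HSP70, HSP110, HSP90, HSP60/10, small heat shock and CCT families averaging at least 10 TPM, Hspa1a and Hspa1b, all Dnaja, the 4 highest Dnajb and Dnajc, catalytic and immune subunits, activators, the highest and lowest of each Psm class, those beyond 1 with the same sign on both large plates, and the 5 largest and smallest SDs. Dnajb2, Dnajc5, Dnajc6, Hspa2, Hspa1l, Hspbp1, the small heat shock proteins, Psma8, Psmb11, Dnajc5b, Dnajb12 and Psmd9 were named after their values were seen. Gene positions are from GENCODE M21 and promoters from RefSeq. The computations ran in Python 3.11.15 with pandas 2.3.3, numpy 2.4.6 and scipy 1.17.1, and the figures in matplotlib 3.10.9.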

Additional observations from a re-analysis of the deposited data

Results flagged for a closer look

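Hspb1 and Hspb8 stood out in the 2 cholinergic interneurons, cells that entered no comparison. Hspb1 was at 20.2 TPM in the interneuron in well A08 and at 148 TPM in that in well B02, against a highest value of 0.269 TPM in any MSN. Hspb8 was at 143 and 114 TPM, against a highest MSN value of 106 TPM, which came from the cell labelled Drd1 in well D04 that held astrocyte markers. Neither difference was tested, and both interneurons were on plate FACS051_5.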

How the results depend on the processing

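Of 16 alternatives, 14 were planned and 2, leaving out the cell in well D04 or the 4 cells against their label, were added after seeing the data; under these the sums had log2 folds of −0.11 and −0.12, or −0.13 and −0.13. The number of members found in at least 50% of MSN ran from 53 to 73. The number higher in D1 MSN, 6 as reported, was 2 with a pseudocount of 10 TPM, 11 without FACS051_5, 10 without FACS086_4, 15 with no filter on the mean and 2 with a mean of at least 50 TPM, as the counts over all genes moved from 949 to 512, 1489, 1405, 3706 and 117. The number higher in D2 MSN, also 6, was 14 without FACS086_4, 23 with upper-quartile scaling, 10 with no filter and 2 with a mean of at least 50 TPM, over all genes 1204, 2036, 2616 and 72 in place of 732. The log2 folds of summed chaperones and proteasome genes, −0.11 and −0.12, were −0.28 and −0.28 between means of logs, 0.040 and −0.024 without FACS051_5, and −1.52 and −2.26 with upper-quartile scaling. That scaling multiplied the cells with the lowest upper quartiles, 0.342 and 0.662 TPM against a median of 131 TPM, by large factors. It moved the median log2 fold of all genes to −0.14, gave 1508 genes above 1, and turned Dnajc17 to −0.99. Means of logs moved the median of all genes to 0.16, with 643 genes above 1 and 235 below −1. Without FACS051_5, Psmd9 turned to 0.41. Of 741 values of single genes under the alternatives, 598 moved by less than the SD of the 2 plate folds. That SD is widest for genes whose plates differ most, so this count says little about stability. The opposite sign was found in 56 values, over 32 of 62 genes. Among the 14 named genes beyond 1 whatever their mean, only the values of Psmd9 and Dnajc17 just given had it. These 14 include Hspa1b, Hspbap1 and Psmc3ip, which averaged below 10 TPM, and leave out Dnajb2. Only 3 of these 14 genes stayed beyond 1 under every alternative that gave a value. No paired analysis was possible because the cells' numbers only follow accession order and pair no cells; plates, which hold both groups, gave the within-plate folds, and with 1 sample a group no replicate could be left out. Fewer transcripts per cell and failed capture cannot be told apart for a gene listed at 0.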
